A study of Homo sapiens with 12 samples.

Results

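KHM-5M is a human cell line of anaplastic thyroid carcinoma, a thyroid cancer that has lost the features of follicular cells. Its genotype was labelled BRAF V600E, a substitution that makes the BRAF kinase signal without RAS. The cells grew in RPMI-1640 with 10% fetal bovine serum, were seeded on 6-well plates, and received either GDC-0994 at 1 µM or the vehicle DMSO for 24 hours. GDC-0994, also named ravoxertinib, inhibits the ERK kinases. Both groups carried the same BRAF change and differed in the treatment, so the comparison asks which RNAs differed in level after a day with the ERK inhibitor in this line. The columns of KHM-5M were taken by their labels, which gave 6 of the 12 libraries of the series, 3 for DMSO and 3 for GDC-0994. The labels do not say that the 3 libraries of a group came from separate cultures, so p-values measure the spread between these libraries, which may be technical.

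ERK1 and ERK2 are the last kinases of the cascade that runs from RAS through RAF and MEK, and they phosphorylate transcription factors and other proteins. In cells with BRAF V600E the cascade is driven without an upstream signal. Long noncoding RNAs (lncRNAs) are transcripts without a long reading frame, and many start beside a protein-coding gene or run across it on the other strand. Some lncRNA transcripts are the precursors of microRNAs or of small nucleolar RNAs that lie in their introns or exons. The results pass over the usual lists of ERK target, feedback and cell cycle genes and follow noncoding genes, gene families and other coding genes.

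The 6 libraries held 15218155 to 18389915 counts. GDC-0994 replicates 1 and 3 differed along GC content, with correlations across 11066 genes of 0.582 and -0.544 between GC and the log2 ratio of the library to the other libraries of its group, and their mean absolute log2 difference was 0.209, against 0.104 to 0.155 for the other pairs of one group. Of 15 thyroid follicular markers, 5 had no count in any library, TG (thyroglobulin), the iodide transporter SLC5A5, DUOX2, DUOXA2 and IYD, and 10 stayed at or below 1 CPM, the usual count scaled to the library total, here after TMM scaling. The transcription factor PAX8 was the 1 marker above 10 CPM in every library, with 213, 217 and 229.8 CPM in DMSO and 127, 124 and 123 CPM in GDC-0994, and it fell by 0.82 ± 0.05. Of 6 tested thyroid follicular markers 1 rose and 3 fell. HHEX fell from 24.6, 20.9 and 21.5 CPM to 9.94, 9.48 and 10.1 CPM. SLC26A4, near 1 CPM in DMSO, fell too, but lost its call under several alternatives. The 1 rise was DIO2, a deiodinase, from 0.119, 0.241 and 0.12 CPM to 2.69, 2.54 and 3.91 CPM. Of 12 mesenchymal markers 10 were above 10 CPM in every library, and of 10 epithelial markers 4, among them the keratin KRT8 at 1639, 1591 and 1600 CPM and then 2503, 2413 and 2333 CPM. The epithelial cadherin CDH1 rose from 0, 0 and 0.0599 CPM to 1.5, 1.04 and 0.77 CPM. Of 8 tested epithelial markers 3 rose (37.5%), 0 fell and 5 were not called, among the last KRT7, KRT18 and CLDN4. Over all tested genes 28.2% rose and 30.3% fell. Of 11 tested mesenchymal markers 6 rose (54.5%), among them FN1, SPARC and PDGFRB. VIM, CDH2, ZEB2 and TWIST1 were the 4 mesenchymal markers that fell. Of 10 blood cell markers 9 stayed at or below 1 CPM in every library. In bulk samples fewer cells of a type and less RNA per cell cannot be told apart.

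RNA levels differed between the groups across most of the measured transcriptome. Of 15251 genes tested, 8930 (58.6%) passed edgeR's quasi-likelihood test at a Benjamini-Hochberg adjusted p below 0.05, and these are the genes said to have changed. Of them 4304 (28.2% of those tested) rose and 4626 (30.3%) fell, and the median log2 fold change of GDC-0994 over DMSO over all tested genes was 0.00. TMM scaling sets most log ratios near 0, so this median does not show that rises and falls balance. Across genes the log2 fold change was higher by a median of 0.08 with upper quartile scaling and 0.06 with library totals. By at least 1 on the log2 scale, 1222 genes (8.01%) rose and 1303 (8.54%) fell. Among the 8930 called genes, the 3 GDC-0994 libraries and the 3 DMSO libraries did not overlap in 8636, and over all tested genes, called or not, they did not overlap in 9738 (63.9%). The usual ERK and cell cycle lists held 262 tested genes, of which 32 rose and 220 fell, and the 14989 genes outside them had 4272 rises and 4406 falls. Levels are given in the text in CPM, for DMSO replicates 1, 2 and 3 and then for GDC-0994 replicates 1, 2 and 3. A value in brackets after a gene, or after rose by or fell by, is a log2 fold change of GDC-0994 over DMSO, with its standard error after ±, and a share is given with its SD.

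More lncRNA genes rose than fell, and more processed pseudogenes fell than rose. Of 14994 lncRNA genes in the table, 7068 had a count in a KHM-5M library and 1485 passed the filter on low counts. Of these 352 (23.7%) rose and 181 (12.2%) fell, with a median log2 fold change of 0.18. Both shares lay below those over all tested genes, 28.2% and 30.3%, and the share that fell lay further below. The 12830 tested protein-coding genes divided into 3799 rises (29.6%) and 4269 falls (33.3%), with a median of -0.01. Within lncRNAs, the lincRNA type had 151 rises (26.8%) and 81 falls (14.4%) among 564 genes. The antisense type had 148 (22.7%) and 68 (10.4%) among 653. Genes annotated as bidirectional promoter transcripts had 8 (36.4%) and 3 (13.6%) among 22. Pseudogenes had 132 rises (16.4%) and 161 falls (20%) among 805. The processed pseudogenes, copies made from spliced RNA, had 47 rises (11.2%) and 103 falls (24.6%) among 419. These shares too lay below those over all tested genes. Other pseudogene types were even or went the other way, with 43 rises and 29 falls among 209 transcribed unprocessed, 15 and 10 among 63 transcribed processed, 13 and 2 among 24 transcribed unitary and 14 and 17 among 83 unprocessed pseudogenes. Their near-identical parent genes can share reads with them, so single pseudogenes are uncertain.

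The level of a gene and its type moved together with these counts. Among lncRNA genes under 1 CPM, 16% rose and 5.64% fell, and among the 47 lncRNA genes at 20 CPM or more 51.1% rose and 19.1% fell. Of protein-coding genes at 20 CPM or more 40.1% fell and 28.8% rose, while those under 1 CPM had 28.3% rises and 12.1% falls. At 1 to 5 CPM, 24.0% of lncRNA genes rose and 15.1% fell, and 31.0% of protein-coding genes rose and 18.3% fell. The lncRNA share of all counts was 0.669% ± 0.017 (SD, n = 3) in DMSO and 0.801% ± 0.047 (SD, n = 3) in GDC-0994. The share of genes encoded in the mitochondrial genome was 3.09% ± 0.22 (SD, n = 3) and 4.04% ± 0.24 (SD, n = 3). No test was made on these shares, and 3 libraries against 3 cannot go below an exact permutation p of 0.10.

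**Figure D1:**
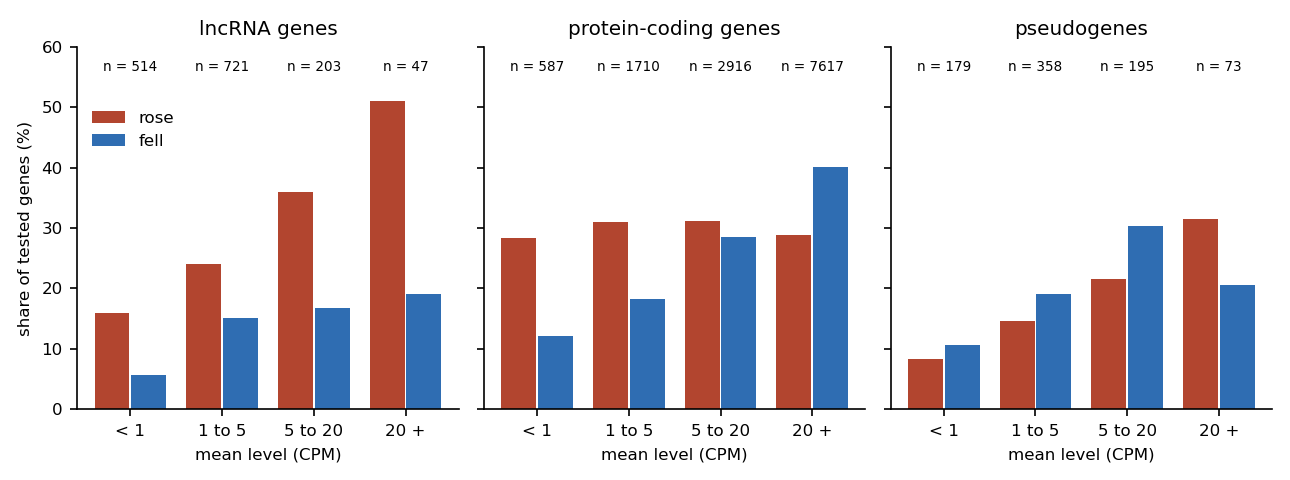
Share of tested genes (%, vertical axis) that rose (red) or fell (blue) in GDC-0994 against DMSO, for lncRNA, protein-coding and pseudogene classes by mean level in CPM (horizontal axis), with the number of tested genes above each pair of bars. Rises outnumbered falls among lncRNA genes at every level and among protein-coding genes at every level below 20 CPM. At 20 CPM or more 40.1% of protein-coding genes fell and 28.8% rose.

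Several lncRNA genes that were close to 0 in DMSO reached clear levels in GDC-0994. LINC01638, an intergenic lncRNA (chr22:27221349-27224727, GRCh38, minus strand), was at 0.415, 0.181 and 0.30 CPM in the DMSO libraries and 7.68, 6.48 and 8.02 CPM in the GDC-0994 libraries. Its log2 fold change was 4.59 ± 0.27 (edgeR adjusted p = 2.1e-08). AL590004.3 (chr6:3904920-3911979) was at 1.13, 1.02 and 1.02 CPM and then 14.9, 14.7 and 15.6 CPM, a log2 fold change of 3.82 ± 0.16 (edgeR adjusted p = 7.4e-10). All 3 treated libraries of both genes lay well above all 3 controls, and the treated libraries lay close together. Neither gene overlapped another tested gene.

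AC027117.1 had no count in any DMSO library and 39, 36 and 33 counts in the GDC-0994 libraries, at least 36.5-fold higher against 3 counts over the DMSO group. It shares its strand and part of its span with AC027117.2, which also rose (log2 fold change 3.72 ± 0.51), so reads of the pair cannot be told apart. AC099066.2 had 2 counts over the DMSO libraries and 66 over the GDC-0994 libraries, a ratio of 32.1 with an exact 95% counting interval of 8.55 to 271. RHOXF1-AS1 (3.3), LINC00954 (3.57) and AC144831.1 (3.8) also rose, all from a mean below 1 CPM in DMSO. The intervals cover counting error only, and PCR copies are not independent molecules.

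STARD4-AS1 and AC090877.2 were among the largest rises and lie across coding genes that rose. STARD4-AS1 (chr5:111512226-111739726, plus strand) was at 3.91, 3.98 and 5.21 CPM in DMSO and 24.2, 29 and 34.8 CPM in GDC-0994, with no overlap (log2 fold change 2.74 ± 0.16, edgeR adjusted p = 2.0e-08). It runs on the other strand of STARD4, a sterol transfer protein gene (0.65 ± 0.14), and of NREP (2.62 ± 0.06). AC090877.2 (chr15:32717270-32719007, minus strand) was at 0.534, 0.663 and 0.779 CPM and then 6.02, 6.24 and 6.67 CPM (3.25 ± 0.22), and it overlaps the first part of GREM1, which rose by 4.66 ± 0.07. The labels describe no step that keeps the strand, so reads from such overlapping genes cannot be told apart.

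The lncRNA genes with the largest falls were AC004585.1, AP005233.2 and SPRY4-AS1. AC004585.1 (chr17:40517026-40527002, plus strand) had 36, 17 and 19 counts in the DMSO libraries and none in the GDC-0994 libraries, at least 23.6-fold lower against 3 counts over the treated group. AP005233.2 (chr11:69371463-69372512, plus strand) was at 3.68, 3.01 and 3.83 CPM and then 0, 0.116 and 0 CPM, a log2 fold change of -6.25 ± 0.54 (edgeR adjusted p = 6.5e-07). By summed counts its DMSO level was 90.4 times the treated level, with an exact 95% counting interval of 24.7 to 752. The nearest coding gene, MYEOV, fell too (-4.57 ± 0.16) and did not overlap it.

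Transcripts named as antisense had 78 rises (26.3%) and 35 falls (11.8%) among 297 tested (median 0.23). Those named as divergent or intronic had 8 (21.1%) and 2 (5.26%) among 38, against 28.2% and 30.3% over all tested genes. SPRY4-AS1 was at 1.36, 1.39 and 1.2 CPM and then 0.0537, 0.116 and 0.0641 CPM (-3.96 ± 0.49, edgeR adjusted p = 1.7e-05). It overlaps 2 coding genes on the other strand, the ERK feedback gene SPRY4 (-3.14) and FGF1, a fibroblast growth factor (-1.31), and both fell. AC016205.1, which lies far from any coding gene and overlaps the pseudogene RPL7AP66 (not called), was at 5.63, 5.06 and 5.63 CPM and then 0.645, 0.405 and 1.03 CPM (-2.98 ± 0.27). C2orf48 (-3.41), AC116345.1 (-3.32), AL713998.1 (-2.85), AC090409.1 (-2.83), LINC01224 (-2.72) and AC012073.1 (-2.63) fell as well. C2orf48 and AC012073.1 each overlap another tested gene that fell.

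**Figure D2:**
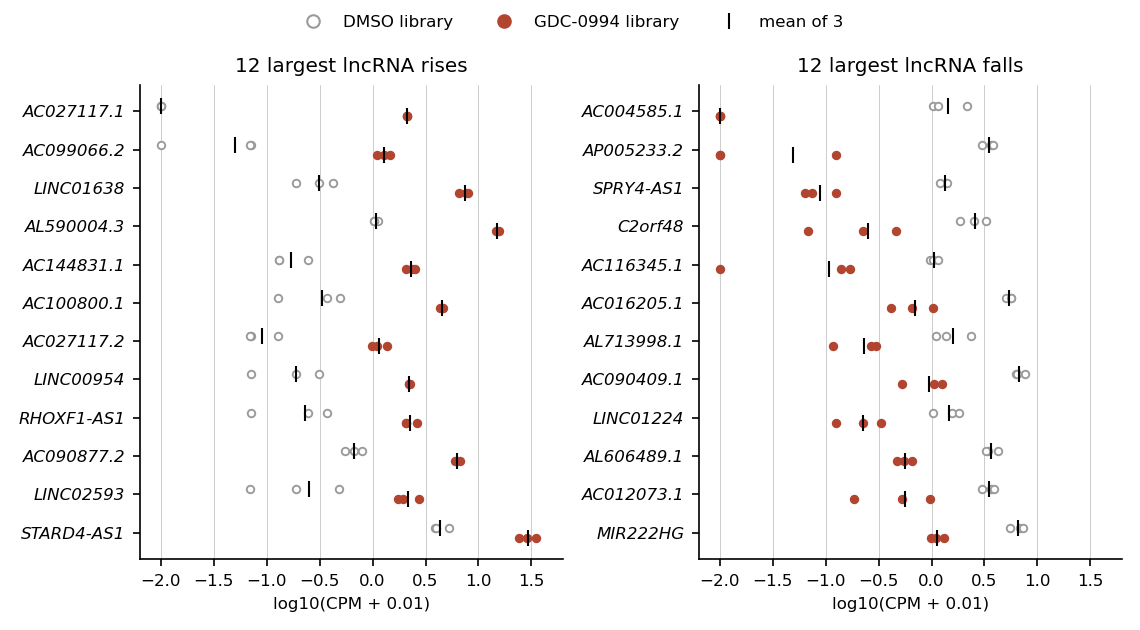
Level of the 12 lncRNA genes with the largest rises (left) and the 12 with the largest falls (right) in each library, as log10(CPM + 0.01) on the horizontal axis, with open circles for DMSO, filled circles for GDC-0994 and a bar at the mean of 3. The treated and control libraries of each gene lie apart, which the choice of these genes required, and several genes have at least 1 library at 0, drawn at -2.

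Among 41 tested lncRNAs that are widely studied in cancer, 15 rose (36.6%) and 12 fell (29.3%), with a median of 0.25. Over all tested genes 28.2% rose and 30.3% fell. NEAT1, which forms the scaffold of paraspeckles, was at 60.8, 72.3 and 79.7 CPM and then 154, 203 and 243 CPM (1.49 ± 0.14, edgeR adjusted p = 1.4e-06). MALAT1, an abundant lncRNA of nuclear speckles, was at 55.3, 65.9 and 80.8 CPM and then 143, 190.3 and 271 CPM (1.58 ± 0.19, edgeR adjusted p = 1.5e-05). In both genes GDC-0994 replicate 1 was the lowest treated library and replicate 3 the highest, the 2 libraries that stood apart along GC content, and all treated libraries were above all controls. With length and GC trends removed from each library the log2 fold change was 1.35 for NEAT1 and 1.46 for MALAT1, and both kept their calls. Without GDC-0994 replicate 1 it was 1.64 for NEAT1 and 1.77 for MALAT1, and without replicate 3 it was 1.33 and 1.31. LINC00963 rose by 0.82 ± 0.07, from 56.9, 52.7 and 61.5 CPM to 107, 96.3 and 97.8 CPM, with less spread between libraries.

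CYTOR and MIR4435-2HG fell together. CYTOR (chr2:87454781-87636740, plus strand) was at 39.6, 45.6 and 40.4 CPM and then 18.8, 15.7 and 18.6 CPM (-1.24 ± 0.10, edgeR adjusted p = 2.5e-07). MIR4435-2HG (chr2:111036776-111523376, minus strand) was at 63.5, 63.6 and 61.2 CPM and then 25.7, 23.1 and 25.1 CPM (-1.35 ± 0.07, edgeR adjusted p = 8.4e-09). These genes are near-identical copies on chromosome 2, so how reads divided between them is uncertain. MIR4435-2HG also overlaps BCL2L11, which encodes the cell death protein BIM and which rose (1.68 ± 0.09).

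The promoters of CYTOR and MIR4435-2HG are shown because they make the copy visible and carry the AP-1 letters TGANTCA, where N is any base. They are RefSeq sequences of GRCh38.p14, from 250 bases before to 50 after the listed start, at chr2:87455177-87455476 on the plus strand and chr2:111495112-111495411 on the minus strand, written 5′ to 3′ with AP-1 matches in capitals. Shifted by 59 bases, the sequences are alike at 241 of 241 bases compared, and the shift leaves 2 matches in the window of CYTOR and 1 in that of MIR4435-2HG.
CYTOR: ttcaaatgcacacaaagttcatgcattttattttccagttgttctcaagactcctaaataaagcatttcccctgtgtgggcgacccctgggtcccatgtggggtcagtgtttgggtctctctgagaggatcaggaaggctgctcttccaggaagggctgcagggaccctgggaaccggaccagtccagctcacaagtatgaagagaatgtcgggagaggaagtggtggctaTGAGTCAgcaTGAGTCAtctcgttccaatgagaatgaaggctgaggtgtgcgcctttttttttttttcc
MIR4435-2HG: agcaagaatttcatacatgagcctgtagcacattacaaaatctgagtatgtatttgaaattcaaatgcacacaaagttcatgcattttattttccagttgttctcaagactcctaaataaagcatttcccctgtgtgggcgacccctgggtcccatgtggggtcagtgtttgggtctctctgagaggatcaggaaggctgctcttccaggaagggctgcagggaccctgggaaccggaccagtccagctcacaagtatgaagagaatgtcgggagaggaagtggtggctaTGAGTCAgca

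Small nucleolar RNA host genes divided. Of 23 tested, 5 rose (21.7%) and 9 fell (39.1%), with a median of -0.09, against 28.2% and 30.3% over all tested genes. SNHG1, whose introns carry box C/D small nucleolar RNAs, was at 99.5, 102 and 102 CPM and then 51.5, 49.6 and 51.6 CPM (-1.0 ± 0.06, edgeR adjusted p = 1.7e-08). SNHG17 (-0.98 ± 0.10) and SNHG3 (-0.55 ± 0.08) fell too, and SNHG3 lies inside the span of RCC1 on the same strand, where reads cannot be told apart. SNHG14, which starts in the imprinted SNRPN region of chromosome 15, was at 25.1, 29.3 and 28 CPM and then 47.8, 55.9 and 64.1 CPM (1.02 ± 0.11). It overlaps SNRPN (0.78 ± 0.21) and UBE3A (0.02, not called). SNHG18 rose by 0.87 ± 0.12 and EPB41L4A-AS1 by 0.39 ± 0.09. GAS5, a host gene whose level follows translation of its own transcript, had a log2 fold change of 0.07 ± 0.06 and did not pass the test.

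Of 20 tested microRNA host transcripts, 6 rose (30%) and 5 fell (25%), near the 28.2% and 30.3% over all tested genes. MicroRNAs are cut from longer transcripts and guide repression through base pairing of their seed, bases 2 to 8. The libraries were made from poly-A RNA, so they measured the host transcripts and not the mature microRNAs. MIR222HG (chrX:45745211-45770274, minus strand), the host of miR-221 and miR-222, was at 6.88, 5.54 and 7.25 CPM and then 1.29, 0.983 and 1.09 CPM (-2.54 ± 0.21, edgeR adjusted p = 5.4e-07). MIR100HG, the host of miR-100, let-7a-2 and miR-125b-1, was at 7.95, 8.92 and 9.53 CPM and then 2.1, 1.68 and 2.05 CPM (-2.18 ± 0.17, edgeR adjusted p = 3.1e-07). No treated library of either host reached the lowest control.

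MIR155HG, host of miR-155, and MIR3142HG, whose span holds miR-146a, were named after their values were seen, as the hosts that fell beside MIR222HG, MIR100HG and MIR4435-2HG. MIR155HG was at 5.04, 4.94 and 5.27 CPM and then 1.07, 0.463 and 1.28 CPM (-2.44 ± 0.28, edgeR adjusted p = 9.5e-06). MIR3142HG was at 1.3, 1.33 and 1.56 CPM and then 0.699, 0.173 and 0.257 CPM (-1.84 ± 0.44, edgeR adjusted p = 0.0033). Both microRNAs are known from inflammatory signalling. The treated libraries of MIR155HG lay far below the controls, and those of MIR3142HG lay below them at a level of few counts.

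MIR193BHG, host of miR-193b and miR-365a, was at 1.07, 2.71 and 2.64 CPM and then 8.28, 9.66 and 8.15 CPM (2.02 ± 0.25, edgeR adjusted p = 1.9e-05). MIR22HG was at 21.2, 22.7 and 21.6 CPM and then 31.9, 34.5 and 34.5 CPM (0.62 ± 0.08), and MIR3936HG, which overlaps the carnitine transporter gene SLC22A5 (1.24), rose by 1.79 ± 0.42. The remaining 3 rises were smaller or less stable and were also named after their values were seen. MIR29B2CHG, host of miR-29b-2 and miR-29c, rose by 0.97 ± 0.28 (edgeR adjusted p = 0.0088), but DESeq2's Wald test gave an adjusted p of 0.0589 and limma on log2(FPKM + 1) without a filter 0.152. MIR503HG rose by 0.39 ± 0.13, and edgeR's adjusted p was 0.117 without DMSO replicate 1, 0.0517 without GDC-0994 replicate 3 and 0.0723 with all 12 libraries in the model. MIR210HG rose by 0.51 ± 0.19, and edgeR's adjusted p was 0.101 without DMSO replicate 1, 0.0941 without DMSO replicate 2, 0.0675 without GDC-0994 replicate 1, 0.104 without GDC-0994 replicate 3 and 0.0882 with all 12 libraries in the model, and DESeq2's Wald test gave 0.109.

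Of 30 mature sequences within hosts that changed, 12 are shown, so that shared seeds can be read. They were picked by hand as the better known arms, and none is shown for MIR4435-2HG, MIR503HG, MIR210HG and MIR3936HG. They are RefSeq sequences of GRCh38.p14, written 5′ to 3′ with the seed in capitals, first those of hosts that fell and then those of hosts that rose.
hsa-miR-221-3p: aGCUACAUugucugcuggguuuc
hsa-miR-222-3p: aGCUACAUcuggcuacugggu
hsa-miR-100-5p: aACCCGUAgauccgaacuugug
hsa-let-7a-5p: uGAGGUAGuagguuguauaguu
hsa-miR-125b-5p: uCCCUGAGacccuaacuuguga
hsa-miR-155-5p: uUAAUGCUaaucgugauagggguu
hsa-miR-146a-5p: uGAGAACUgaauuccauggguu
hsa-miR-193b-3p: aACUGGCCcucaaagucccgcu
hsa-miR-365a-3p: uAAUGCCCcuaaaaauccuuau
hsa-miR-22-3p: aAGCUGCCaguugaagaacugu
hsa-miR-29b-3p: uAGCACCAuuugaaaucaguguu
hsa-miR-29c-3p: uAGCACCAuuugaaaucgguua
The seed GCUACAU is shared by miR-221-3p and miR-222-3p, both in MIR222HG. The seed AGCACCA is shared by miR-29b-3p and miR-29c-3p, both in MIR29B2CHG. The other sequences shown have seeds of their own. The mature let-7a-5p also lies in MIRLET7BHG, a tested host that was not called.

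Many lncRNA genes start next to a coding gene on the other strand, and such neighbours often changed in the same direction. In 281 head-to-head pairs whose starts lie within 5 kb, 60 had both genes called, and 47 of these (78.3%) went the same way, 34 up and 13 down. The lncRNA rose and the coding gene fell in 10 pairs, and the reverse held in 3. Across the 281 pairs the log2 fold changes had a Pearson correlation of 0.46 and a Spearman correlation of 0.39, over points that share the same 6 libraries. With starts within 1 kb, 39 of 51 called pairs went the same way. For pairs that did not overlap and were not head to head, 29 of 40 (72.5%) went the same way with starts within 50 kb and 32 of 55 (58.2%) beyond it. The differences between these shares were not tested. Overlapping pairs on the other strand, which share reads in these libraries, had 108 of 136 called pairs in the same direction.

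The pairs with both genes changed by at least 1 on the log2 scale were named after their values were seen, and 8 went the same way and 2 opposite ways. TGFB2 encodes the growth factor TGF-beta 2, and TGFB2-AS1 starts 557 bases away. TGFB2 was at 21.7, 20.8 and 24.3 CPM and then 137, 153 and 169 CPM (2.78 ± 0.09, edgeR adjusted p = 7.7e-11). TGFB2-AS1 was at 1.36, 1.57 and 1.56 CPM and then 8.92, 6.94 and 9.04 CPM (2.47 ± 0.19, edgeR adjusted p = 2.5e-07). The treated libraries of both lay several-fold above every control. LINC02593 and SAMD11 (3.12 and 2.58), AC027117.2 and MTUS1 (3.72 and 2.65), and AL132780.2 and AJUBA (1.29 and 1.37) also rose in pairs. AJUBA, a LIM domain protein of cell junctions, was at 199, 194 and 187 CPM and then 526, 497 and 472 CPM.

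SLC20A1, a sodium-dependent phosphate transporter, was at 481, 481 and 461 CPM and then 85.7, 83.6 and 80.4 CPM (-2.51 ± 0.05, edgeR adjusted p = 2.3e-12). Its neighbour FLJ42351, whose start is 167 bases away, was at 4.15, 5.6 and 5.03 CPM and then 0.967, 1.27 and 1.09 CPM (-2.15 ± 0.23). Both genes fell in every treated library. AL606489.1 and PLEKHA6 (-2.72 and -1.77) and SH3RF3-AS1 and SH3RF3 (-1.06 and -1.5) fell as pairs, and AL606489.1 also overlaps PIK3C2B, which rose (0.74). FOXD2-AS1 fell by 2.32 ± 0.25, and the transcription factor FOXD2 beside it had -1.09 ± 0.39 (edgeR adjusted p = 0.03). Leaving out DMSO replicate 2 gave FOXD2 a log2 fold change of -0.68 (edgeR adjusted p = 0.183), and leaving out GDC-0994 replicate 2 gave -0.72 (edgeR adjusted p = 0.109). The adjusted p of FOXD2 was 0.0604 with the replicate number as a block and 0.0614 with limma on log2(FPKM + 1) without a filter. The opposite pairs were AC068870.2 with TLNRD1 (1.55 and -1.06) and AC023043.1 with MOCOS (1.69 and -1.21).

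**Figure D3:**
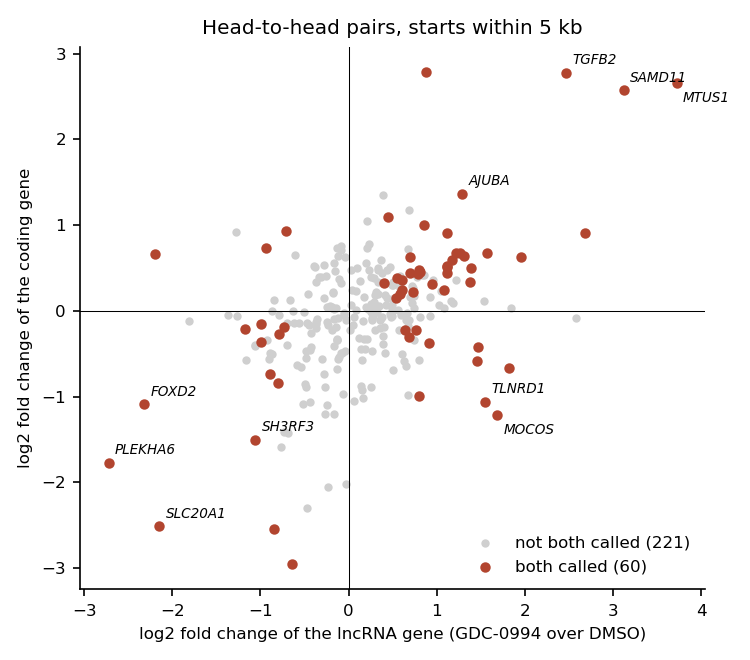
Log2 fold change of the lncRNA gene (horizontal axis) and of the coding gene that starts within 5 kb on the other strand (vertical axis) for 281 head-to-head pairs, with the 60 pairs in which both genes were called in red. Of the red points 47 lie in the 2 quadrants of equal sign, and the named coding genes belong to the 10 pairs with both changes at least 1.

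Of 35 small RNA genes tested 4 rose and 8 fell by at least 1 on the log2 scale, and of 805 pseudogenes 44 rose and 67 fell by as much. Over all tested genes 8.01% rose and 8.54% fell by at least 1. RN7SL2, a gene for the RNA of the signal recognition particle, was at 63.1, 114 and 66 CPM and then 6.56, 9.14 and 10.8 CPM (-3.21 ± 0.23). All treated libraries were below all controls, but RN7SL2 has near-identical copies in the genome, so its reads are uncertain. The mitochondrial transfer RNA gene MT-TD was at 0.237, 0.0603 and 0.0599 CPM and then 0.752, 0.983 and 1.6 CPM (3.12 ± 0.58). Of 10 mitochondrial transfer RNA genes tested 7 rose (70%), against 28.2% of all tested genes. MT-RNR2, the large ribosomal RNA of mitochondria, was at 3871, 3798 and 3795 CPM and then 6230, 5883 and 5339 CPM (0.61 ± 0.05). Poly-A selection was the first step of these libraries, and how evenly it kept such transcripts was not tested.

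WFDC21P, a transcribed pseudogene of a protease inhibitor family, was at 0.178, 0.301 and 0.539 CPM and then 7.09, 7.05 and 7.76 CPM (4.4 ± 0.28, edgeR adjusted p = 3.9e-08). PUDPP2 had 3 counts over the DMSO libraries and 67 over the GDC-0994 libraries, a ratio of 21.7 with an exact 95% counting interval of 7.13 to 108, and overlaps FLG-AS1, which rose (1.04). MYH16, a myosin heavy chain pseudogene, fell by 3.42 ± 0.55. RPSAP52 fell by 3.27 ± 0.61 and overlaps HMGA2 on the other strand, which also fell (-1.99 ± 0.07).

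Some genes had counts in 1 group alone. At 0 in every DMSO library and above 0 in every GDC-0994 library were 223 genes, 95 of them lncRNA and 79 protein coding, and 3 of them were called. TNNI1, the slow skeletal form of troponin I, had 23, 17 and 14 counts in the GDC-0994 libraries, at least 18.3-fold higher against 3 counts over the DMSO group. RCSD1, a regulator of actin capping protein, had 15, 12 and 14 counts, at least 13.9-fold higher. In the reverse direction 145 genes were at 0 in every GDC-0994 library, of which 3 were called. LGR5, a receptor for R-spondins and a stem cell marker, had 20, 20 and 21 counts in the DMSO libraries, at least 20-fold lower in GDC-0994. LCN1, a secreted lipocalin, had 17, 17 and 20 counts, at least 17.7-fold lower.

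The largest coding rises outside the usual lists were those of CRISPLD2 (4.71), ADAMTS5 (4.67), GREM1 (4.66), BMF (4.38), PPL (4.05), OLFML3 (3.93), ACKR3 (3.56), TP53INP1 (3.56), IL7R (3.5) and COL9A2 (3.43), where both groups had to average 1 CPM or more. The genes described next ranked below these 10. LUM, the matrix proteoglycan lumican, was at 4.33, 5.18 and 5.33 CPM and then 38.2, 45 and 44.8 CPM (3.11 ± 0.12, edgeR adjusted p = 3.1e-10). ADAMTS15, a secreted metalloprotease, was at 1.9, 1.81 and 1.56 CPM and then 19.9, 16.5 and 18.7 CPM (3.38 ± 0.15, edgeR adjusted p = 1.7e-09). The libraries within each group of both genes differed little against the step between groups. C1S (3.02 ± 0.20), a complement serine protease, rose as well.

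FILIP1L, a filamin-binding protein, was at 8.24, 8.5 and 9.71 CPM and then 73.5, 92.3 and 102 CPM (3.34 ± 0.13, edgeR adjusted p = 3.4e-10), and it overlaps CMSS1 on the other strand, which fell (-1.24). ZSCAN31, a zinc finger transcription factor, was at 14.3, 13.4 and 16.1 CPM and then 117, 112 and 128 CPM (3.03 ± 0.09, edgeR adjusted p = 2.5e-11). Other transcription factors in this range were NFE2 (3.02) and ATOH8 (3.0). PTGS1, cyclooxygenase 1, was at 1.19, 1.27 and 1.02 CPM and then 8.11, 8.67 and 8.15 CPM (2.84 ± 0.18). MYO7A (3.33), an unconventional myosin, SLC44A4 (3.07), a choline transporter-like protein, CLIC3 (3.07), a chloride intracellular channel protein, and DTX4 (2.9), a ubiquitin ligase of the Notch pathway, also rose. PSG5 (3.19) belongs to a family of near-identical pregnancy-specific glycoproteins, so its reads are uncertain.

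By the same rule the largest coding falls were those of SLCO4A1 (-4.9), MYEOV (-4.57), SIGLEC15 (-4.35), G0S2 (-3.82), TGM2 (-3.81) and WNT7B (-3.76). The genes described next ranked below these 6. NT5E, the enzyme CD73 that makes adenosine outside the cell, was at 435, 427 and 424 CPM and then 44.5, 48 and 41.8 CPM (-3.26 ± 0.06, edgeR adjusted p = 1.3e-12). EMP1, an epithelial membrane protein, was at 328, 332 and 321 CPM and then 36.9, 35.7 and 35.9 CPM (-3.18 ± 0.05, edgeR adjusted p = 7.8e-13). All 3 treated libraries of both genes lay far below the controls and close to each other. NTM, a neural adhesion protein, was at 53.7, 48.3 and 51.5 CPM and then 3.76, 3.53 and 4.36 CPM (-3.72 ± 0.11), and KCNK3, an acid-sensitive potassium channel, at 47.1, 47.9 and 51 CPM and then 4.3, 3.82 and 3.59 CPM (-3.63 ± 0.10).

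TOX2, an HMG-box protein, was at 72.6, 71.6 and 82.3 CPM and then 7.25, 7.52 and 5.2 CPM (-3.49 ± 0.12, edgeR adjusted p = 1.3e-10). The neuropeptide precursor VGF (-3.56), TMEM158 (-3.52), the membrane collagen COL13A1 (-3.46), the soluble pattern receptor PTX3 (-3.32), the peptide ligand APLN (-2.93), the serotonin receptor HTR7 (-3.0) and the inflammasome sensor NLRP3 (-2.81) fell too. The usual cell cycle lists left out some genes that serve replication or division and that fell strongly. DTL, a substrate receptor of a ubiquitin ligase at replication forks, was at 74.5, 71.9 and 71.5 CPM and then 8.49, 7.86 and 8.66 CPM (-3.12 ± 0.08), and WDR62, a spindle pole protein, at 59.2, 61.2 and 61.7 CPM and then 9.56, 7.46 and 8.72 CPM (-2.82 ± 0.10). PKMYT1 (-3.02), EME1 (-2.82), ZNF367 (-3.17) and TCF19 (-2.8) are further examples.

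**Figure D4:**
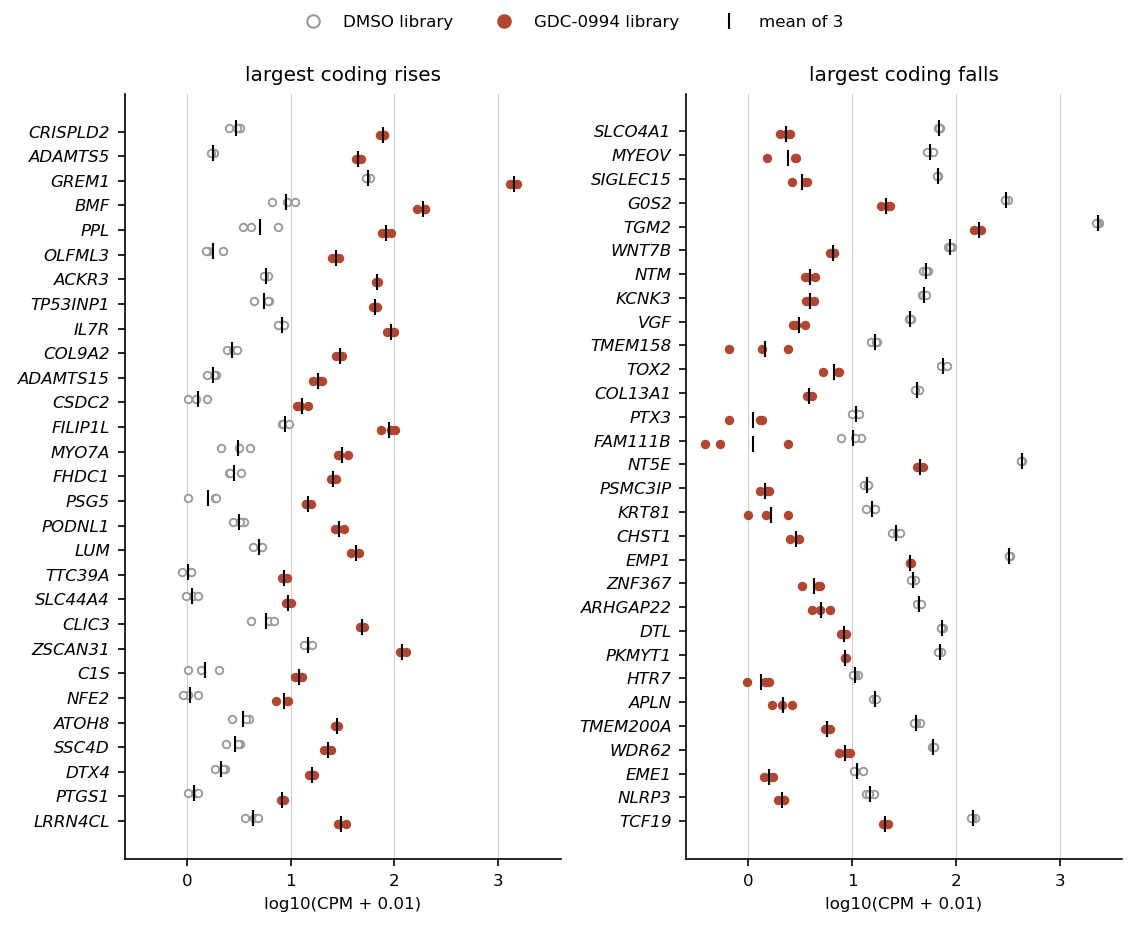
Level of protein-coding genes with the largest rises (left) and the 30 with the largest falls (right) outside the usual ERK and cell cycle lists, as log10(CPM + 0.01) in each library, with open circles for DMSO, filled circles for GDC-0994 and a bar at the mean of 3. The groups do not overlap, which the choice of these genes required.

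Ranked by difference of mean CPM, other genes came first. FTL, the ferritin light chain, was at 4112, 4066 and 4227 CPM and then 12909, 12624 and 11980 CPM (1.6 ± 0.05, edgeR adjusted p = 2.9e-11), the largest gain. The mitochondrial gene MT-CO1 (0.42 ± 0.08) and the elongation factor EEF1A1 (0.32 ± 0.04) gained most after it. HMGA1, an architectural chromatin protein, was at 3706, 3512 and 3756 CPM and then 521, 475 and 440.2 CPM (-2.93 ± 0.06, edgeR adjusted p = 3.4e-12), so it lost more CPM than any other coding gene outside the usual lists. TGM2, transglutaminase 2, was second among the falls, at 2368, 2362 and 2221 CPM and then 175, 169.8 and 150.3 CPM. MT2A, a metallothionein that binds zinc and copper and lower in that order, was at 1287, 1166 and 1203 CPM and then 433, 418 and 397 CPM (-1.55 ± 0.05). ACTG1, cytoplasmic gamma actin and next after EEF1A1 among the gains, was at 3948, 3888 and 3830 CPM and then 6487, 6304 and 5974 CPM (0.69 ± 0.04). ANXA2 rose by 0.70 ± 0.05 and the giant scaffold AHNAK by 0.46 ± 0.05. FTL, EEF1A1, MT2A and ACTG1 have near-identical family members or processed copies, so their reads are uncertain. The fold changes of ACTG1 and ANXA2 were far smaller than that of HMGA1, and their CPM differences rest on high levels.

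In the cadherin superfamily most clustered protocadherins rose, while the other members went both ways. Of 59 tested cadherins and protocadherins 37 rose (62.7%) and 8 fell (13.6%), with a median log2 fold change of 0.85 against 0.00 over all genes. For this list and those that follow, the shares over all tested genes were 28.2% risen and 30.3% fallen. In the protocadherin beta cluster, single-exon genes in a row on chromosome 5, 14 of 15 rose, with a median of 1.12. In the gamma cluster 13 of 18 rose and 1 fell, and in the alpha cluster 4 of 6 rose. Of 7 cadherins named CDH 1 rose and 3 fell (median -0.07). Of 14 other protocadherins, FAT, DCHS and CELSR genes, the last outside the list of 59, 6 rose and 4 fell (median 0.17). Genes of the alpha and gamma clusters share their last exons, so their reads are uncertain. FAT4, an atypical cadherin of planar polarity, was at 18.4, 17.6 and 17.6 CPM and then 50.1, 53.7 and 61.8 CPM (1.63 ± 0.09), and PCDHB5 rose by 0.80 ± 0.07. CDH4 (-3.43 ± 0.23), PCDH1 (-1.71 ± 0.16) and CDH13 (-0.80 ± 0.06) fell.

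Most collagen genes that changed rose. Of 26 tested 15 rose (57.7%) and 8 fell (30.8%), with a median of 0.68, against 28.2% and 30.3% over all tested genes. COL5A2, a fibril collagen, was at 60.2, 57.1 and 61.9 CPM and then 194, 189 and 182 CPM (1.66 ± 0.06), and COL1A1 rose by 1.35 ± 0.06. COL17A1, the hemidesmosome collagen, fell by 4.59 ± 0.31, and COL6A2 fell as well (-0.57 ± 0.05). Of 42 proteoglycan and heparan sulphate genes 17 rose and 12 fell (median 0.17), with falls of the hyaluronan receptor CD44 (-1.92 ± 0.05) and of syndecan SDC1 (-1.48 ± 0.06). Of 62 glycosyltransferases 13 rose (21%) and 19 fell (30.6%), and with upper quartile scaling 18 rose and 16 fell.

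Guidance genes, the semaphorins, netrins, slits and their receptors, had 20 rises (48.8%) and 11 falls (26.8%) among 41 (median 0.35). Over all tested genes the shares were 28.2% and 30.3%. PLXNA4, a semaphorin receptor, was at 13.5, 13.6 and 12.3 CPM and then 0.107, 0.116 and 0.192 CPM (-6.52 ± 0.24, edgeR adjusted p = 3.1e-10). Its treated libraries held almost no reads of the gene. SEMA3B (1.79 ± 0.08), NTN4 (2.45 ± 0.16) and SEMA3C (1.7 ± 0.12), which encode secreted ligands, rose, and SEMA7A (-2.08 ± 0.08) and SEMA6B (-1.18 ± 0.07), which stay at the membrane, fell. Of 30 ligand and adhesion genes of the nervous system 14 rose and 8 fell (median 0.21), with a rise of MAP2, a microtubule protein of dendrites (2.76 ± 0.14), and a fall of STMN3 (-1.6 ± 0.07).

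Eicosanoid and phospholipase A2 genes had 14 rises (50%) and 6 falls (21.4%) among 28 (median 0.32), against 28.2% and 30.3% over all tested genes. PTGES, the inducible prostaglandin E synthase, was at 7.35, 8.8 and 9.41 CPM and then 44.9, 47.5 and 47.5 CPM (2.45 ± 0.10, edgeR adjusted p = 6.8e-10). PTGR1, a prostaglandin reductase, rose by 1.29 ± 0.05, EPHX1 by 1.39 ± 0.06, and PTGES3, another prostaglandin E synthase, fell from 400.5, 382 and 370.4 CPM to 258, 252 and 249 CPM (-0.60 ± 0.05). Of 36 sphingolipid genes 12 rose (33.3%) and 8 fell (22.2%), among them UGCG, glucosylceramide synthase (1.28 ± 0.06), and SPHK1, sphingosine kinase 1 (-2.37 ± 0.07). Of 34 aldehyde dehydrogenase and retinoid genes 13 rose (38.2%) and 12 fell (35.3%). ALDH3B1 (1.8 ± 0.07), CRABP2 (1.77 ± 0.08) and RARRES2 (2.64 ± 0.14) were among the rises.

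Contractile genes (myosins, tropomyosins and actin-binding proteins) had 25 rises (51%) and 15 falls (30.6%) among 49 (median 0.18). Over all tested genes the shares were 28.2% and 30.3%. SYNPO, an actin-binding protein, was at 47.4, 48.9 and 49.6 CPM and then 355, 318 and 299.7 CPM (2.74 ± 0.07, edgeR adjusted p = 1.0e-11), and MYL9, a myosin light chain, rose by 1.86 ± 0.05 and TPM1 by 1.17 ± 0.05. MYO10, a myosin of filopodia, fell by 1.16 ± 0.05. Tubulins had 4 rises and 13 falls among 23 (median -0.58), and their near-identical copies make single tubulin genes uncertain. Of 21 S100 and annexin genes 9 rose (42.9%) and 2 fell (9.52%), and of 56 RAB genes of membrane traffic 23 rose (41.1%) and 10 fell (17.9%).

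Receptors and channels went both ways, beside 28.2% risen and 30.3% fallen over all tested genes. RGS genes, which encode proteins that end G protein signals, had 1 rise and 9 falls among 11 (median -0.70). RGS4 was at 7.29, 6.87 and 5.63 CPM and then 0.537, 0.694 and 0.449 CPM (-3.53 ± 0.24, edgeR adjusted p = 8.5e-08), and RGS10 fell by 0.92 ± 0.08. The rise, RGS5 (0.96 ± 0.34, edgeR adjusted p = 0.026), had an edgeR adjusted p of 0.0973 when DMSO replicate 2 was left out, 0.0963 when DMSO replicate 3 was, and 0.135 when GDC-0994 replicate 3 was, with a log2 fold change of 0.61 in the last case. Of 102 G protein-coupled receptors 40 rose (39.2%) and 26 fell (25.5%), with a median of 0.20. Calcium, sodium, chloride and TRP channel genes had 24 rises (44.4%) and 11 falls (20.4%) among 54, and potassium channel genes 10 rises (29.4%) and 13 falls (38.2%) among 34. SCNN1A, a subunit of the epithelial sodium channel, rose by 2.73 ± 0.18, and CACNA2D4 fell by 2.42 ± 0.12. Of 210 solute carriers 80 rose (38.1%) and 59 fell (28.1%), with a median of 0.13.

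Notch, IGF and Hedgehog genes were mixed, beside 28.2% risen and 30.3% fallen over all tested genes. Of 30 Notch pathway genes 13 rose (43.3%) and 10 fell (33.3%). The receptor NOTCH1 (-1.96 ± 0.10) and the target HES1 (-3.88 ± 0.28) fell while DTX4 rose. IGFBP3, a binding protein of insulin-like growth factors, was at 36.4, 36.4 and 28.3 CPM and then 130.4, 113 and 146 CPM (1.94 ± 0.11, edgeR adjusted p = 1.3e-08). All 3 treated libraries exceeded the controls. IGFBP5 rose by 3.48 ± 0.23 and IGFBP6 by 0.90 ± 0.07, among 7 rises and 5 falls in 16 genes of that list. Of 13 Hedgehog genes 3 rose (23.1%) and 4 fell (30.8%), and of 23 tetraspanins 8 rose (34.8%) and 4 fell (17.4%).

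Genes of nuclear transport and of nucleotide supply fell as groups. Of 49 nuclear pore and karyopherin genes 2 rose (4.08%) and 41 fell (83.7%), with a median log2 fold change of -0.56. Over all tested genes 28.2% rose and 30.3% fell. All 21 tested nucleoporins named NUP with a number fell, with a median of -0.93. KPNA2, an importin alpha, was at 391, 391 and 350.5 CPM and then 113, 108 and 119 CPM (-1.74 ± 0.06, edgeR adjusted p = 1.3e-10). The small GTPase RAN, which gives transport its direction, fell by 1.06 ± 0.05, and its exchange factor RCC1 fell too (-1.16 ± 0.06). KPNA5 (0.81 ± 0.19) rose, and so did KPNA6 (0.14 ± 0.05, edgeR adjusted p = 0.035), for which DESeq2's Wald test gave an adjusted p of 0.069. The edgeR adjusted p of KPNA6 was 0.141 without a filter, 0.0577 with all 12 libraries in the model and 0.0582 with a replicate block. Leaving out any DMSO library, or GDC-0994 replicate 2 or 3, gave KPNA6 an edgeR adjusted p of 0.0571 to 0.193. Purine and pyrimidine synthesis genes had 2 rises and 26 falls among 32 (median -0.61), with DUT, which removes dUTP, at -1.33 ± 0.06, PAICS at -0.92 ± 0.05 and the nucleoside transporter SLC29A1 at -0.97 ± 0.06. The rises were ADSSL1 (2.18 ± 0.16) and AK4 (0.47 ± 0.06).

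Most measured genes of splicing (67.7%), the proteasome (71.7%) and chaperones (70%) fell too, against 30.3% of all tested genes. Of 93 splicing factors 14 rose and 63 fell (median -0.44), with falls of HNRNPAB (-1.53 ± 0.07), SNRPB (-0.95 ± 0.05) and PTBP1 (-0.91 ± 0.04) and rises of MBNL2 (1.18 ± 0.11), PTBP3 (0.66 ± 0.10) and SRSF5 (0.43 ± 0.06). Proteasome subunits had 2 rises and 33 falls among 46 (median -0.36). PSMD2, a subunit of the regulatory particle, was at 899, 862 and 820.4 CPM and then 346, 318 and 321 CPM (-1.39 ± 0.05, edgeR adjusted p = 3.1e-10), and the 6 PSMC ATPase subunits all fell. Chaperonin and cytosolic heat shock genes had 6 rises and 28 falls among 40 (median -0.46), with falls of FKBP4 (-1.12 ± 0.06), HSPA8 (-0.99 ± 0.05) and STIP1 (-0.84 ± 0.05). DNAJB2 (1.19 ± 0.06) and HSPB8 (1.24 ± 0.10), a small heat shock protein, rose.

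Translation genes followed with smaller steps, and 59.5% of synthetases and 46.3% of initiation and elongation factors fell, against 30.3% of all tested genes. Of 37 aminoacyl-tRNA synthetases 4 rose and 22 fell (median -0.28), with YARS (-0.79 ± 0.05), FARSB (-1.0 ± 0.06) and MARS (-0.73 ± 0.05) leading the falls. Of 67 initiation and elongation factors 13 rose and 31 fell (median -0.17), with EIF4EBP1 (-1.68 ± 0.07) and EIF5A (-1.02 ± 0.05) among the falls and EIF4A2 (0.45 ± 0.07) among the rises. Polyamine genes had 3 rises and 9 falls among 16 (median -0.44), and SRM, spermidine synthase, fell by 1.13 ± 0.07.

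Regulators of transcription moved in both directions, as did all tested genes, of which 28.2% rose and 30.3% fell. Of 464 numbered zinc finger genes 137 rose (29.5%) and 67 fell (14.4%), with a median of 0.19. Of 37 BTB zinc finger genes 15 rose (40.5%) and 3 fell (8.11%), with a median of 0.16. Of 149 chromatin regulators 41 rose (27.5%) and 56 fell (37.6%). Among the falls were PHF19, a Polycomb cofactor (-2.15 ± 0.05), DNMT1, the maintenance DNA methyltransferase (-1.86 ± 0.06), and NSD2, a histone methyltransferase (-1.63 ± 0.05). ARID5B (2.04 ± 0.09) and KDM5B, a histone demethylase (1.18 ± 0.07), rose. Of 29 nuclear receptors 10 rose (34.5%) and 10 fell (34.5%), and the thyroid hormone receptor THRB rose by 2.07 ± 0.12. Of 21 clock genes 7 rose (33.3%) and 6 fell (28.6%), with NPAS2 falling (-2.06 ± 0.09). HOX genes had 4 rises (15.4%) and 6 falls (23.1%) among 26, and primary cilium genes 21 (32.8%) and 11 (17.2%) among 64. Tripartite motif genes had 20 (42.6%) and 14 (29.8%) among 47, and F-box genes 19 (33.3%) and 17 (29.8%) among 57. Phosphodiesterases had 3 (20%) and 7 (46.7%) among 15. The nuclear receptor, clock and F-box shares lay near those over all tested genes.

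**Figure D5:**
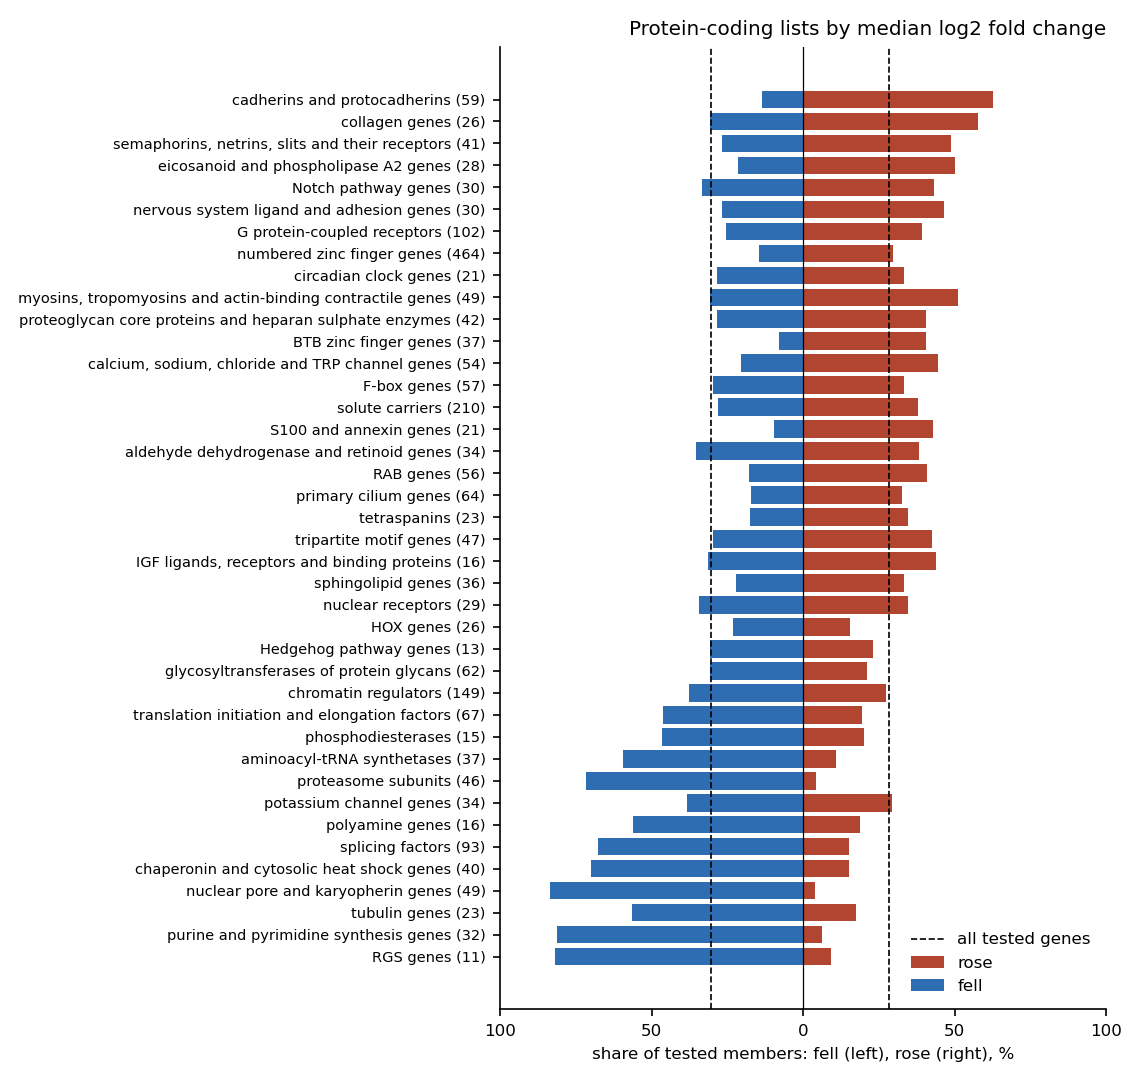
Share of tested members (%, horizontal axis) that fell (blue, left) or rose (red, right) in the coding lists shown, ordered by median log2 fold change from high to low, with the number of tested members in brackets and dashed lines at the shares over all tested genes. Cadherins and protocadherins stand at the top with 37 of 59 risen, and nuclear pore, nucleotide synthesis and RGS lists stand near the bottom with 41 of 49, 26 of 32 and 9 of 11 fallen.

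Promoters were searched for short motifs on both strands, in RefSeq windows of 300 bases that matched 10611 of the tested genes. The E2F letters TTTCCCGC or TTTGGCGC were found in 3.74% of these promoters, in 5.49% of those of genes that fell, and in 8.07% (72 of 892) of those of genes that fell by at least 1. For all genes that rose by at least 1 it was 1.58% (12 of 760). Outside the usual lists the shares were 6.03% (44 of 730) for genes that fell and 1.60% (12 of 751) for genes that rose by at least 1. Among all 35116 listed promoters 2.27% held the letters. Of the 62 lncRNA genes that fell and had a promoter 8.06% held them, against 3.26% of the 429 lncRNA genes tested. A match of letters is a description and not a bound site.

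The promoters of DTL, WDR62 and TOX2 are shown because these genes fell strongly outside the usual lists and hold an E2F match. They are RefSeq GRCh38.p14 sequences at chr1:212035498-212035797, chr19:36054647-36054946 and chr20:43915880-43916179, all on the plus strand, written 5′ to 3′ with the match in capitals.
DTL: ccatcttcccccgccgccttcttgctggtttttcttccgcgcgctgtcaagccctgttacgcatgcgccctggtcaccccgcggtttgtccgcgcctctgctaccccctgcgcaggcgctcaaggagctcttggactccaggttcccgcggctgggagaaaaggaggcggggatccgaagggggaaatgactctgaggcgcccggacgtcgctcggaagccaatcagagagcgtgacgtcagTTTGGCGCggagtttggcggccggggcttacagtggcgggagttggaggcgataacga
WDR62: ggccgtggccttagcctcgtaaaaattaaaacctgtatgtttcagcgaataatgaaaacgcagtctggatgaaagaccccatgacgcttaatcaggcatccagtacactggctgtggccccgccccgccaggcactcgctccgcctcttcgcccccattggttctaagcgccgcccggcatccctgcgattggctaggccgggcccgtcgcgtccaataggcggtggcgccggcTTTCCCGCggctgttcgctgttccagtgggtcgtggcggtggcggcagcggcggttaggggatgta
TOX2: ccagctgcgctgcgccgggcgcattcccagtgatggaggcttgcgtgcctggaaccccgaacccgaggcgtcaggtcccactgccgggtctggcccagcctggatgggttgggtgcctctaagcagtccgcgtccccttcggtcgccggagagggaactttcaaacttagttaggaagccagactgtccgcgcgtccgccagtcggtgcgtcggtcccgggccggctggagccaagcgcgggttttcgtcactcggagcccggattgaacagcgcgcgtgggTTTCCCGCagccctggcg
The match lies close before the listed start in DTL and WDR62 and after it in TOX2.

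CCAAT was found in 36.4% of tested promoters, 43.8% of those that fell by at least 1 and 32.2% of those that rose by at least 1, with 34.6% over all promoters. The CHR letters TTTGAA or TTTAAA, an element of cell cycle genes, had 15.3%, 24.4% and 20.3%, and 24.0% over all promoters. Outside the usual lists the CHR shares were 19.7% (144 of 730) for falls of at least 1 and 20.1% (151 of 751) for such rises. The ETS letters CCGGAAGT had 8.56%, 5.04% and 2.37%, and 4.14% over all promoters. The AP-1 letters TGANTCA had 4.51%, 5.61% and 6.45%, with 7.71% over all promoters, and were found in 9 of 62 promoters of lncRNA genes that fell against 30 of 429 lncRNA genes tested. The FOXO letters GTAAACA had 2.25%, 1.57% and 2.89% (3.42% over all), the letters TCACGTGA bound by TFEB 1.91%, 1.01% and 0.658% (0.98%), the interferon-stimulated response element 2.89%, 2.13% and 4.47% (3.57%), and the antioxidant response element of NRF2 10.3%, 11% and 11.7% (12.5%). Without a minimum change, genes that fell and genes that rose had 9.29% and 7.31% for the ETS letters. They had 4.03% and 5.26% for the AP-1 letters, and 1.55% and 2.44% for TCACGTGA. Matches of different motifs can overlap, and no test was made on these shares.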

How the data were processed

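Poly-A RNA of KHM-5M was sequenced in 3 DMSO and 3 GDC-0994 libraries. Per the submitters' processing notes, the tools named are HISAT2 2.0.5, CASAVA and featureCounts 1.5.0-p3, and the build is GRCh38, with roles and order not stated. The authors deposited a table of raw counts per gene. The authors also deposited FPKM values, which equalled count over length and 1 library size within a relative error of 4.85e-07. All 58735 gene IDs matched GENCODE 29, and 27 symbols that read as dates were named through their IDs.

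Counts of the 6 libraries (15218155 to 18389915 per library) were filtered with filterByExpr (a count of 10, a total of 15), and after TMM scaling were modelled by edgeR 4.0.16 quasi-likelihood in R 4.3.3 with 4 residual degrees of freedom, without a block. The two-sided p-values were adjusted by Benjamini-Hochberg over 15251 genes and called below 0.05. The procedure was also run on simulated counts in which few genes changed, equally up and down. That run does not cover data in which most genes change, as here. Gene lists are described by counts and medians. Promoters and microRNAs came from RefSeq GRCh38.p14 tables. The comparison, gene lists and tests were chosen with earlier results of these data known.

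Named were, in each direction, the 12 lncRNAs and the 30 coding genes outside the usual lists with the largest log2 fold change among called genes without overlap between groups (mean of at least 1 CPM in the higher group for lncRNAs, with at least 20 counts in all, and in both groups for coding genes). Also named were the 10 coding genes with the largest CPM difference, 3 pseudogenes or small RNA genes, up to 3 members of each list by smallest p, and the 5 genes with most counts that were at 0 in a group. From each the text takes some, chosen with their values seen, 1 gene and 1 list are not reported here, and X inactivation, Y-linked and HLA genes were left out. A fold against a group at 0 uses a floor of 3 counts over the group.

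The alternatives were the size factors or the Wald test of DESeq2 1.42.0, upper quartile and library total scaling, testing without a filter or with a stricter one (3 libraries at 1 CPM or more, and a mean of 50 counts), all 12 libraries in 1 model, a replicate block, removal of length and GC trends (mgcv 1.9.3), limma 3.58.1 on log2(FPKM + 1), filtered at 1 FPKM or not filtered, and on log2(FPKM + 0.1), a minimum log2 fold change of 1, head-to-head pairs within 1 kb, and leaving out each library. The labels give the same column name for the 3 GDC-0994 samples, whose columns were matched by the replicate number in the title, and the replicate block depends on this.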

Additional observations from a re-analysis of the deposited data

How the results depend on the processing

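The number of called genes was 8930 and lay between 7519 and 9510 under the alternatives that kept the threshold. Leaving out each library in turn gave 7865 to 9510 called genes, 3670 to 4616 rises, 4005 to 4894 falls, 285 to 355 lncRNA rises and 161 to 208 lncRNA falls. DESeq2's Wald test called 8025. With a minimum log2 fold change of 1 there were 2525 called genes, 1222 rises and 1303 falls, and 201 lncRNA rises and 107 lncRNA falls. The stricter filter, which tested 11985 genes, gave 169 lncRNA rises and 71 lncRNA falls. The share of promoters with the E2F letters among genes that fell was 5.49% and became 8.07% with the minimum log2 fold change of 1. The share of calls that rose was 48.2%, 57.0% with upper quartile scaling and 54.5% with library totals. Of 46 lists 27 had more rises than falls, with 24 to 27 on leaving out a library and 21 with the minimum log2 fold change of 1, and the glycosyltransferases were the 1 list whose majority turned under a scaling.

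The replicate numbers did not pair the libraries: the correlations of same-numbered deviations were 0.000168, 0.00421 and -0.125, and not every library correlated best with its own number. With the replicate block 8592 genes were called, 4123 rises and 4469 falls, with 336 lncRNA rises and 173 lncRNA falls.

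The genes checked were those the rule names, the head-to-head pairs changed by at least 1, and the tested microRNA hosts and cell type markers. Of 392 called genes among them, 378 kept call and direction under every alternative that tested them, the minimum log2 fold change aside. An alternative that did not test a gene was passed over for it. The stricter filter tested 11985 genes, so for genes with few counts the check covers fewer alternatives. The call was lost under at least 1 alternative by 14, 11 of them on leaving out a library, and 0 reversed. Reads of overlapping or near-identical genes cannot be told apart in these libraries. Genes with few counts, most lncRNAs among them, limit what this depth can show.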
